A study of Mus musculus with 4 samples.

Results

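Heat shock proteins are chaperones that bind unfolded or newly made proteins and help them fold. The genes described here are Hspa1a, Hspa1b, Hspa8, Hsp90aa1, Hsp90ab1, Hspb1, Dnajb1, Hspd1, Hspe1 and Hspa5, 10 of the 32285 genes listed in each count matrix. They were chosen by symbol, as representatives of the cytosolic, mitochondrial and endoplasmic reticulum (ER) chaperones, and each symbol matched 1 row. The choice was made with earlier results of these data known, so comparisons of the members with all genes are descriptions only. Some of them are nearly silent in resting cells and are switched on by the factor HSF1 when proteins unfold, and others are made at all times. The ER chaperone Hspa5 instead follows the unfolded protein response, which is set off by misfolded protein in the secretory pathway. In brain tissue, chaperone transcripts are also known to react to cell dissociation, so their levels in isolated cells are read with care.

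The cells were CD45+ brain cells of wild-type C57Bl/6 mice, sorted after mechanical dissociation and Percoll enrichment and sequenced by droplet capture of 3′ transcript ends. The 4 groups were aged mice (18 to 20 months) on day 3 after potassium chloride cardiac arrest (CA) and resuscitation, aged mice after sham surgery, young mice (3 to 6 months) on day 3 after CA, and young mice after sham surgery. Each group was 1 library pooled from 3 mice that could not be told apart. With 1 library per group there is no test between groups. The intervals below cover the error of counting UMIs (unique molecular identifiers, 1 for each captured transcript), not the spread between mice.

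Microglia, the macrophages that live in brain tissue, made up most of the cells, with 4964 cells in aged CA, 5476 in aged sham, 9208 in young CA and 8187 in young sham. They were gated by marker genes, and all 12 microglial markers were detected in each library, at a summed level of 10277 CPM (UMIs scaled to the same total in each class and library) in aged CA, 21579 in aged sham, 16076 in young CA and 25639 in young sham. Ptprc, which encodes CD45, stood at 464, 499, 405 and 418 CPM in the microglia of these libraries, and at 8.50 to 37.7 CPM in barcodes gated as neurons. The libraries differed in depth: the median microglial cell had 10544.5 UMIs in aged CA, 3513 in aged sham, 9543 in young CA and 6064 in young sham. Aged sham stood apart in other ways, with 15% of its cells carrying markers of several classes against 1.44% to 2.23% elsewhere, and with haemoglobin transcripts at 27.0 CPM in microglia against 1.16 to 2.90 CPM. Aged CA lost the most barcodes to the limit of 10% mitochondrial UMIs, 906 of 6794. It was 162 of 7700 in aged sham, 663 of 10794 in young CA and 308 of 9038 in young sham. Of aged CA microglia, 6.73% had a microglial marker rate under 50 per 10000 UMIs, against 0.147% to 0.945% elsewhere. Markers of other cells within the microglial sums moved with the groups: all 10 neuronal markers were present and summed to 55.2 CPM in aged CA, 128 in aged sham, 34.1 in young CA and 57.0 in young sham, and the 10 monocyte markers to 69.3, 26.5, 225 and 15.4 CPM. The immediate early genes, which also react to dissociation, summed to 3389, 2966, 2161 and 1931 CPM in the same order. The part of depth, of these other markers and of handling in the chaperone values was not tested. Of the 34184 different barcodes, 142 occurred in more than 1 library.

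Of the stress-inducible cytosolic genes, Hspa1a, Hspa1b and Hspb1 were scarce in microglia. Hspa1a and Hspa1b encode the inducible HSP70 proteins and lie 9952 bases apart on chromosome 17 (GRCm38; Hspa1a, ENSMUSG00000091971, chr17:34969190-34972156, minus strand; Hspa1b, ENSMUSG00000090877, chr17:34956436-34959238, minus strand). Their promoters are nearly copies of each other. In the RefSeq table on GRCm38.p6, each window of 300 bases runs from 250 bases before the start site to 50 after it, and the Hspa1a window, chr17:34972107-34972406 on the minus strand, is shown because the heat shock element is the motif of this group. Its capitals mark 1 heat shock element of 2 units (GAANNTTC, its first base 104 bases before the start site, written -104) and 1 CCAAT box (letters CCAAT or, on the other strand, ATTGG, at -67).
Hspa1a: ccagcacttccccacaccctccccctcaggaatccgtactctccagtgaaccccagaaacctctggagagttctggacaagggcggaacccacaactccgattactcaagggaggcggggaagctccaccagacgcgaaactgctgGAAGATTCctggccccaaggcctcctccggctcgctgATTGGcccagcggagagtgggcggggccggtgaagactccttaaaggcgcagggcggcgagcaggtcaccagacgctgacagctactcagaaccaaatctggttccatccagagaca
The Hspa1b window differed from it at 4 of 300 bases (C44T, T47C, T249G and C276T, Hspa1a base first, counted from 1 at the 5′ end), none of them inside either motif. GAANNTTC was found in 7.86% of the 32851 promoter windows of the table and CCAAT in 37.4%, searching both strands, so a match describes the letters only. The transcripts themselves are less alike near the end that was sequenced: they were 84.3% identical over their whole length and 46.8% over the last 500 bases, and no stretch of 90 bases in the last 500 of Hspa1a occurred in the last 500 of Hspa1b. How the authors' counting handled reads shared by both genes is not given in the sources used here.

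Hspa1a had 90 UMIs in aged CA microglia, 34 in aged sham, 49 in young CA and 26 in young sham, which is 1.64, 1.07, 0.496 and 0.409 CPM. Hspa1b had 38, 41, 24 and 11 UMIs in the same libraries, or 0.693, 1.29, 0.243 and 0.173 CPM. Both aged libraries lay above both young ones for each gene. Between CA and sham in aged mice the ratio was 1.54 for Hspa1a (95% interval 1.03 to 2.36) and 0.539 for Hspa1b (0.338 to 0.860). Of the 90 Hspa1a UMIs in aged CA, 7 came from a single cell, and the ratio without it was not computed. In young mice the ratios were 1.21 (0.739 to 2.03) and 1.40 (0.662 to 3.17), and both intervals included 1. In aged against young microglia the Hspa1a ratio was 3.31 (2.31 to 4.79) after CA and 2.60 (1.52 to 4.52) after sham. For Hspa1b it was 2.85 (1.67 to 4.97) after CA and 7.42 (3.75 to 16.0) after sham. A single aged CA cell held 19 of the 38 Hspa1b UMIs of its library. Without that cell, which was left out after its value was seen, the aged to young Hspa1b ratio after CA was 1.43, with an interval of 0.739 to 2.72 that included 1, and the aged CA to sham ratio was 0.270 (0.148 to 0.475).

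Few cells carried these transcripts. At least 1 UMI of Hspa1a or Hspa1b was seen in 84 of 4964 aged CA microglia, 1.69% (Clopper-Pearson 95% interval 1.35% to 2.09%), and in 72 of 5476 aged sham microglia, 1.31% (1.03% to 1.65%). In young mice it was 63 of 9208 after CA, 0.684% (0.526% to 0.875%), and 37 of 8187 after sham, 0.452% (0.318% to 0.622%). Both genes were seen together in 4 aged CA cells and 1 young CA cell, and in 0 cells of either sham library. After every cell was thinned to 2000 UMIs, Hspa1a was seen in 8 of 4773 aged CA cells, 11 of 3706 aged sham cells, 5 of 8673 young CA cells and 10 of 7416 young sham cells. This order of CA and sham goes against the CPM of Hspa1a, and at this depth its thinned shares rest on single UMIs. For Hspa1b, whose thinned cells are given below, the order in aged mice was that of the CPM. With so few cells no order of CA and sham is read for the pair.

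Hspb1 encodes the small heat shock protein HSP27, which holds unfolding proteins in solution (ENSMUSG00000004951, chr5:135887919-135889563, plus strand). Its promoter window, chr5:135887669-135887968 on the plus strand, holds 2 matches of GAANNTTC, at -117 and -97, in capitals.
Hspb1: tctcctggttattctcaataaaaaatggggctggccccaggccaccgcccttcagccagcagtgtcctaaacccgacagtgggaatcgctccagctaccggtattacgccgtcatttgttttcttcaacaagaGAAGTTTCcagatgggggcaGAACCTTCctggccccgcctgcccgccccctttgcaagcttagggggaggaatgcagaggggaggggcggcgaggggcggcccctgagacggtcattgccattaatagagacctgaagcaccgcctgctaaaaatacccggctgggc
Hspb1 stood at 1.33 CPM in aged CA microglia, 1.16 in aged sham, 0.901 in young CA and 0.630 in young sham, from 73, 37, 89 and 40 UMIs. The CA ratios of 1.15 in aged (0.763 to 1.75) and 1.43 in young mice (0.975 to 2.13) had intervals that included 1. The aged to young ratios were 1.48 (1.07 to 2.04) after CA and 1.84 (1.15 to 2.96) after sham. Over all microglia, for this gene too both aged libraries lay above both young ones, although the intervals of aged sham and young CA overlapped. In cells of 10000 UMIs or more this order did not hold. Aged sham stood there at 0.549 CPM, from 10 UMIs, against 0.660 in young sham and 0.828 in young CA. The aged to young sham ratio in these cells was 0.831 (0.358 to 1.78).

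Dnajb1 encodes an HSP40 co-chaperone that hands clients to HSP70 (ENSMUSG00000005483, chr8:83608193-83612653, plus strand). It was the most even of the 7 members that had a mean of at least 10 CPM over the libraries compared. Its level was 19.1 CPM in aged CA microglia, 23.2 in aged sham, 21.5 in young CA and 20.8 in young sham. The CA ratio was 0.823 in aged (0.748 to 0.905) and 1.03 in young mice (0.966 to 1.11). Neither of its promoter windows held GAANNTTC, and 1 of them held 2 CCAAT boxes, at -151 and 11.

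**Figure D1:**
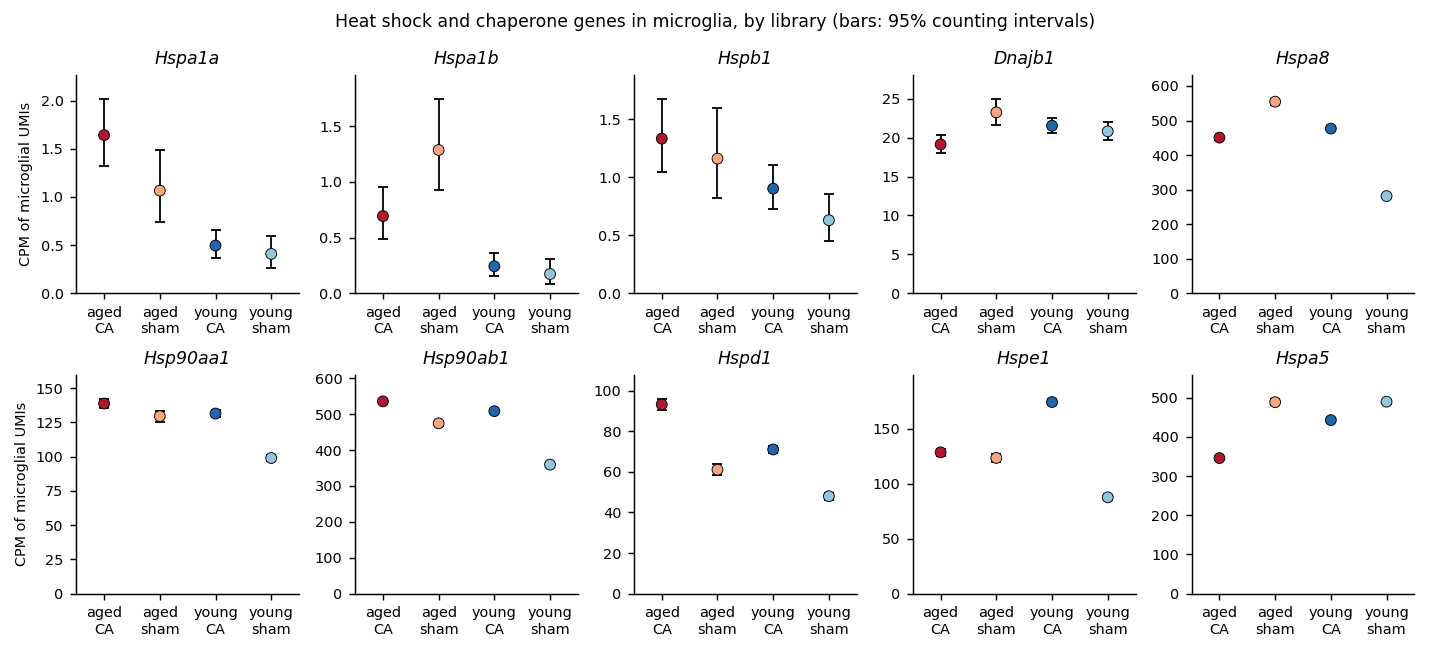
Level of each of the 10 genes in microglia (vertical axis, CPM of microglial UMIs, starting at 0) in the aged CA, aged sham, young CA and young sham libraries; points are library values and bars are exact Poisson 95% intervals, which speak of counting only. Hspa1a, Hspa1b and Hspb1 stay under 2 CPM with both aged libraries above both young ones, an order that Hspb1 does not keep in the deepest cells. Hspa8 is highest in aged sham and Hspe1 in young CA.

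Hspa8 encodes HSC70, the HSP70 that cells make at all times and that also serves chaperone-mediated autophagy and the uncoating of clathrin vesicles (ENSMUSG00000015656, chr9:40800984-40810087, plus strand). Its level was 451 CPM in aged CA microglia, 555 in aged sham, 477 in young CA and 281 in young sham. Young sham was the low library and aged sham the high one, so CA and sham differed in opposite directions at the 2 ages. The CA ratio was 0.813 in aged mice (0.797 to 0.829) and 1.69 in young mice (1.66 to 1.72). Across ages the ratio was 1.97 between the sham libraries (1.93 to 2.01) and 0.945 between the CA libraries (0.931 to 0.960). The difference between the ages in the CA ratio was not tested. It rests on both sham libraries, the high aged sham, described above, and the low young sham.

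Hsp90aa1 and Hsp90ab1 encode the inducible and the constitutive cytosolic HSP90, which hold kinases and steroid receptors in a form ready for activation (ENSMUSG00000021270, chr12:110690605-110702728, minus strand; ENSMUSG00000023944, chr17:45567775-45573271, minus strand). Hsp90aa1 stood at 139 CPM in aged CA microglia, 130 in aged sham, 132 in young CA and 99.0 in young sham. Hsp90ab1 stood at 536, 475, 508 and 360 CPM in the same order. For both genes young sham was the lowest library and the other 3 lay close together. The CA ratios were 1.07 (1.03 to 1.11) for Hsp90aa1 and 1.13 (1.11 to 1.15) for Hsp90ab1 in aged mice. When each cell's own CPM was averaged instead, both aged ratios turned to just below 1 (log2 -0.05 for Hsp90aa1 and -0.03 for Hsp90ab1). In young mice they were 1.33 (1.29 to 1.37) and 1.41 (1.39 to 1.44).

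Hspd1 and Hspe1 encode the mitochondrial chaperonin HSP60 and its lid HSP10, which fold imported proteins together. Their genes face away from each other on chromosome 1 and their annotated bodies overlap by 112 bases (Hspd1, ENSMUSG00000025980, chr1:55077835-55088243, minus strand; Hspe1, ENSMUSG00000073676, chr1:55088132-55091307, plus strand). They share a promoter region: the Hspe1 window, chr1:55087898-55088197 on the plus strand, has 285 of its 300 bases in common with 1 of the 2 Hspd1 windows. The capitals mark a run with 2 overlapping matches of a heat shock element of 3 units (GAANNTTCNNGAA, either strand), at -89 and -84 from the Hspe1 start. Both contain the same match of GAANNTTC, at -84.
Hspe1: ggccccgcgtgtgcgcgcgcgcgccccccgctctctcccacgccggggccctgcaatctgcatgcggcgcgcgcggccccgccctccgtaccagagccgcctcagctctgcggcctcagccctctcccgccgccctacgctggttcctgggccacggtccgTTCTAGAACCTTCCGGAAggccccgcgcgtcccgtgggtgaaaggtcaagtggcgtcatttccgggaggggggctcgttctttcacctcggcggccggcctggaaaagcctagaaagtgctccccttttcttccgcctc
The 3-unit element was found in 0.603% of the promoter windows, and among the members' windows in these alone.

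Despite the shared promoter region the pair did not keep a fixed ratio across libraries. Hspd1 stood at 93.2 CPM in aged CA microglia, 61.0 in aged sham, 71.0 in young CA and 48.0 in young sham, so each CA library lay above the sham library of its age. Its CA ratio was 1.53 in aged (1.45 to 1.61) and 1.48 in young mice (1.42 to 1.54). Hspe1 stood at 129 CPM in aged CA, 124 in aged sham, 174 in young CA and 87.7 in young sham. Its CA ratio was 1.04 in aged (1.0 to 1.08) and 1.99 in young mice (1.93 to 2.05), where young CA was the high library and young sham the low one. The mean over cells put the aged Hspe1 ratio on the other side of 1 (log2 -0.20). After CA, aged against young microglia had a ratio of 1.31 for Hspd1 (1.27 to 1.36) and 0.737 for Hspe1 (0.717 to 0.758).

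Hspa5 encodes BiP, the HSP70 of the ER and the sensor that holds the unfolded protein response in check (ENSMUSG00000026864, chr2:34771970-34777547, plus strand). Its promoter window, chr2:34771840-34772139 on the plus strand, held no heat shock element of either length. In capitals are 4 CCAAT boxes, at -214, -186, -98 and -65, the last of which is part of 1 ER stress element (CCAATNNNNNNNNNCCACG), a motif found in 0.119% of promoter windows.
Hspa5: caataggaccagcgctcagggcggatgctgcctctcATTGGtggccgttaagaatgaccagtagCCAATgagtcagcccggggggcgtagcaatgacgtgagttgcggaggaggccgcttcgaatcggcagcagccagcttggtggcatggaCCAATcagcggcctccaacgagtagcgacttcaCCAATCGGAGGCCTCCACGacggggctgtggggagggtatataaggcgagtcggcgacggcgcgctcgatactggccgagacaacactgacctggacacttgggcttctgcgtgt
Hspa5 was the 1 member among the 7 that was lowest in aged CA and highest in both sham libraries. Its level was 346 CPM in aged CA microglia, 488 in aged sham, 443 in young CA and 490 in young sham. The CA ratio was 0.708 in aged mice (0.693 to 0.723) and 0.904 in young mice (0.891 to 0.917). The young ratio turned to just above 1 (log2 0.02) under TMM, a scaling by the trimmed mean of gene ratios. The sham libraries were level, with an aged to young ratio of 0.997 (0.978 to 1.02), while the ratio between the CA libraries was 0.781 (0.768 to 0.794).

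Of the 7 members at a mean of 10 CPM or more, none reached a 2-fold difference in microglia in any of the 4 comparisons. The 3 scarce genes were under this limit and were not counted, although Hspa1a and Hspa1b passed 2-fold between the ages, as given above. In aged CA against aged sham 0 of 7 were 2-fold higher, where 6.07% of all 9219 genes counted were, and 0 of 7 were 2-fold lower, where 7.73% were. In young CA against young sham it was 0 of 7 in both directions, against 5.63% higher and 2.43% lower of 9129 genes. Between aged and young microglia it was again 0 of 7, against 1.80% higher and 2.59% lower after CA and 1.91% higher and 0.164% lower after sham. At such background shares a count of 0 among 7 says little about the members. By direction alone, a rule added after the values were seen, 4 of 7 members lay above a ratio of 1 in aged CA against sham (53.5% of all genes counted) and 6 of 7 in young CA against sham (44.1%). It was 3 of 7 in aged against young CA (53% of all genes counted) and 6 of 7 in aged against young sham (40.4%).

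The median log2 ratio of the 7 members was 0.06 in aged CA against sham, where that of all genes was 0.05, and 0.50 in young CA against sham, where that of all genes was -0.06. It was -0.08 in aged against young CA, beside 0.02 for all genes, and 0.39 in aged against young sham, beside -0.05. These comparisons share libraries, so the 2 medians that stand out both have young sham as their lower side. TMM would add 0.16 to each log2 CA ratio in aged and 0.17 in young mice. It would move the share of higher genes among those at 2-fold to 60.1% in aged and 83.0% in young mice, against 44.0% and 69.8% without it, and to 30.6% in aged against young CA, against 41.0%.

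**Figure D2:**
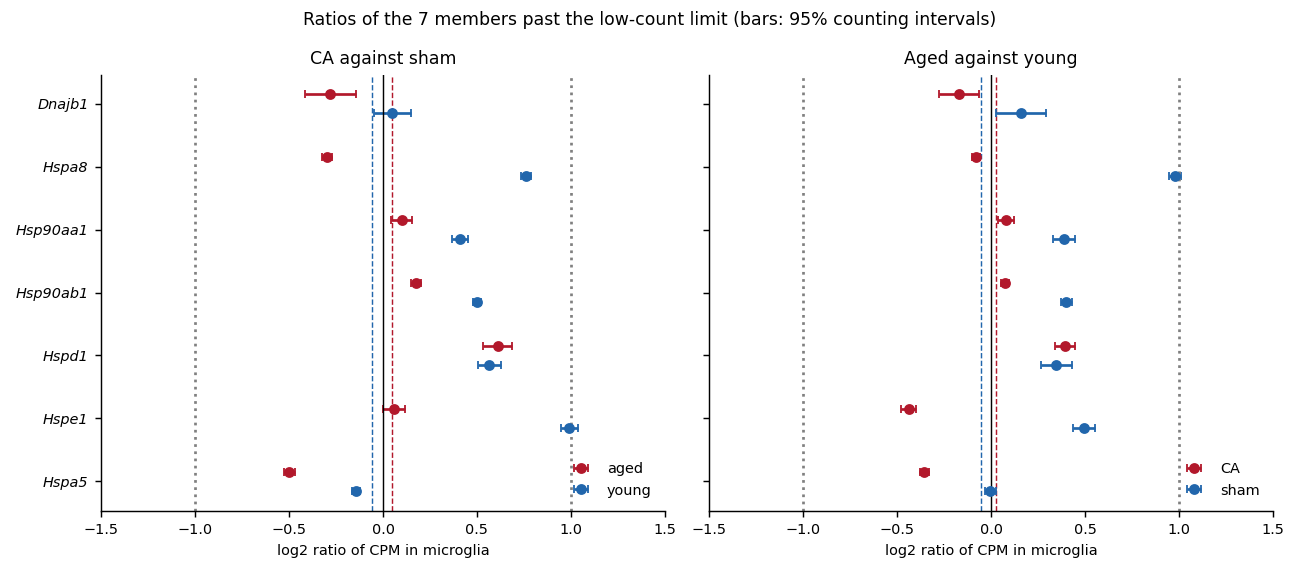
Log2 ratio of CPM in microglia (horizontal axis) for the 7 genes past the limit of 10 CPM, CA against sham in aged and young mice (left) and aged against young mice after CA and after sham (right); points are ratios, bars exact 95% counting intervals, dashed lines the median of all genes counted and dotted lines the 2-fold limits. Hspa8 lies on opposite sides of 0 in aged and young CA ratios, Hspd1 on the same side, and Hspa5 below 0 in both, though under TMM scaling the young Hspa5 ratio turns to 0.02.

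Several of these ratios depended on how deeply the cells were read. In each library Hspa8, Hsp90ab1 and Hspe1 took a larger share of the UMIs in deeper microglia from 2000 UMIs upwards. In young sham, for instance, Hspa8 stood at 158 CPM in cells of 2000 to under 5000 UMIs and 319 CPM in cells of 10000 or more, and in young CA at 183 and 529 CPM. Cells under 2000 UMIs did not follow this order. In aged sham, where they were 1770 of 5476 microglia, Hspa8 stood at 625 CPM in them and 590 CPM in the deepest cells. Hspe1 stood at 167 and 133 CPM there, and Hsp90ab1 at 442 and 514 CPM. The young CA ratio of Hspa8 was 0.704 (0.581 to 0.851) in cells under 2000 UMIs, 1.16 (1.08 to 1.25) up to 5000, 1.47 (1.41 to 1.53) up to 10000 and 1.66 (1.62 to 1.69) above. Its direction thus held from 2000 UMIs up and was opposite in the shallowest cells. The young CA ratio of Hsp90ab1 was 0.721, 0.829, 1.02 and 1.44 in the same bins, so it lay above 1 beyond its interval only in the deepest cells. For Hspe1 it was 0.995, 1.52, 2.08 and 1.85. The young CA ratio of Hsp90aa1 was 0.516 (0.347 to 0.757) in the shallowest cells, 0.919 and 1.05 in the middle bins, with intervals that included 1, and 1.30 (1.26 to 1.35) in the deepest.

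In aged mice the Hspa8 ratio was 0.403, 0.396, 0.604 and 0.847 in these bins, below 1 throughout and farthest from it in shallow cells. The aged Hsp90ab1 ratio was 0.736, 0.615 and 0.715 in the 3 shallower bins and 1.17 in the deepest, opposite in direction. The aged Hsp90aa1 ratio was 0.762 (0.493 to 1.13), 0.758 (0.646 to 0.887) and 0.843 (0.765 to 0.929) in the shallower bins and 1.07 (1.02 to 1.12) in the deepest, so for it too the direction of the pooled ratio was that of the deepest cells alone. For Hspe1 it was 0.556, 0.677, 0.932 and 1.04, the last with an interval of 0.993 to 1.09. Hspd1 after CA in aged mice was 0.917, with an interval of 0.474 to 1.63, in cells under 2000 UMIs and 1.37, 1.23 and 1.47 above. Hspa5 was the member least tied to depth, with aged CA ratios of 0.713, 0.703, 0.687 and 0.692. In young mice its ratio was 0.978 (0.827 to 1.16), 0.820, 0.818 and 0.921. The bins held 191 aged CA and 1770 aged sham cells at the shallow end and 2651 and 1249 at the deep end.

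**Figure D3:**
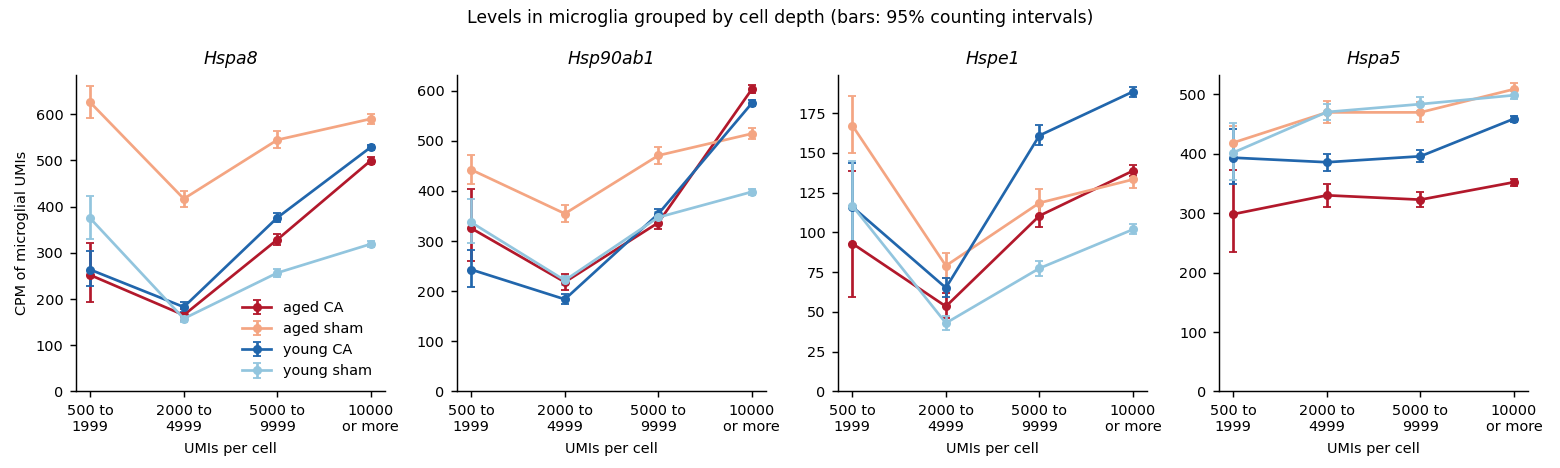
Level of Hspa8, Hsp90ab1, Hspe1 and Hspa5 in microglia (vertical axis, CPM) by the number of UMIs in the cell (horizontal axis, 4 bins) for the 4 libraries; bars are exact Poisson 95% intervals. From 2000 UMIs upwards the first 3 genes stand higher in deeper cells of every library, whereas Hspa5 differs less with depth and is lowest in aged CA in every bin.

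The scarce genes apart, the members were seen in many microglia. After thinning to 2000 UMIs, Hspa8 was seen in 45.4% of 4773 aged CA cells and 57.5% of 3706 aged sham cells, and in 47.2% of 8673 young CA cells and 34.8% of 7416 young sham cells. Unthinned it was seen in 3840 of 4964, 3842 of 5476, 6960 of 9208 and 5151 of 8187 cells. Hspe1 was seen in 19.1% of thinned aged CA cells, 17.8% of aged sham, 23.9% of young CA and 13.2% of young sham. The variance of the thinned counts over their mean, which is 1 for pure sampling, was 1.59 in aged CA, 1.39 in aged sham, 1.46 in young CA and 1.26 in young sham for Hspa8, and 1.75, 1.52, 1.61 and 1.31 for Hsp90ab1. For Dnajb1 it was 1.0 to 1.05, close to sampling. The highest value of any member was that of Hspa1b in aged CA, at 4.75, where 1 thinned cell had 6 UMIs. Hspa1a, Hspa1b and Hspb1 were each seen in few thinned cells, for Hspa1b 3 of 4773 in aged CA and 9 of 3706 in aged sham.

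Chaperone levels were also compared inside marker-defined states of microglia among cells of at least 10000 UMIs. These gates were chosen after the members' values had been seen, and cells inside a gate were deeper than those outside, so the values are descriptions. In young CA, 775 cells carried cell cycle genes and had a median of 21125 UMIs, against 14259 in the 3604 others. Hsp90aa1 stood at 268 CPM in these cycling cells and 113 in the others, a ratio of 2.36 (2.28 to 2.46). For Hsp90ab1 the ratio was 1.54 and for Hspa5 it was 1.02 (0.991 to 1.04). In aged sham 11 cells carried cell cycle genes, with ratios of 1.79 (1.33 to 2.35) for Hsp90aa1 and 0.924 (0.750 to 1.13) for Hsp90ab1. In aged CA, 441 cells had at least 5 UMIs each of the chemokine genes Ccl3 and Ccl4, with a median of 17041 UMIs against 14133.5 in the other 2210. In them Hsp90aa1 stood at 260 CPM against 127, Hspa8 at 808 against 428 and Hsp90ab1 at 961 against 519, ratios of 2.06, 1.89 and 1.85. Dnajb1 stood at 17.6 CPM against 20.8, a ratio of 0.845 whose interval of 0.701 to 1.01 included 1. The same gate in young CA held 233 cells, where the ratios were 1.63 for Hsp90aa1, 1.36 for Hspa8 and 1.55 for Hsp90ab1. Higher levels inside this gate were also seen after sham. In aged sham it held 29 cells, with ratios of 2.57, 1.79 and 1.97 in the same order. Among young sham cells of at least 2000 UMIs it held 21, with ratios of 2.85, 2.60 and 2.86. Cells carrying interferon response genes had an Hspa8 ratio of 1.74 (1.69 to 1.78) in aged CA, from 694 cells inside and 1957 outside, and of 1.06 (1.04 to 1.08) in young CA, from 1400 and 2979. In aged sham the ratio was 0.937 (0.819 to 1.07), from 27 and 1222.

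Among the other classes, cells gated as monocytes or macrophages had the highest Hspa8 of the 7 classes plotted. It stood there at 1331 CPM in aged CA (50 cells) and 1512 in aged sham (22 cells), and at 1437 in young CA (302 cells). T or NK cells followed at 537 CPM in aged CA and 848 in aged sham, and at 883 in young CA and 838 in young sham. Border-associated macrophages, which sit along vessels and meninges, had 436, 658, 596 and 528 CPM in the same order. Neutrophils had 223 CPM in aged CA, 253 in aged sham and 214 in young CA, which do not differ beyond their intervals. B or plasma cells had 366 CPM in aged CA, 629 in aged sham and 399 in young sham. Barcodes gated as neurons had 36.1, 88.4, 57.9 and 31.9 CPM, the lowest of these classes. In aged CA the intervals of microglia (445 to 456 CPM) and border-associated macrophages (391 to 485) overlapped, and in aged sham those of border-associated macrophages (599 to 722) and B or plasma cells (553 to 713) did. The 21 dendritic cells of young CA, at 1326 CPM (1208 to 1452), overlapped with monocytes or macrophages (1407 to 1467).

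For Hspa5 the order was another one, with microglia and border-associated macrophages above T or NK cells in every library. T or NK cells had 128 CPM in aged CA, 230 in aged sham, 241 in young CA and 286 in young sham, and border-associated macrophages 239, 540, 379 and 447 CPM. In monocytes or macrophages Hspa5 stood at 326 CPM in aged CA against 565 in young CA, a ratio of 0.577 (0.520 to 0.638), the same side as in microglia. Hspe1 was at 140 against 202 CPM there, a ratio of 0.692 (0.588 to 0.809), and Hspa8 at a ratio of 0.926 (0.879 to 0.975). None of the 7 members counted was 2-fold lower in that comparison, against 9.58% of 8110 genes, and none was 2-fold higher, against 4.25%. Only these 2 libraries held 50 or more such cells.

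Border-associated macrophages of aged mice had 2 of 7 members 2-fold lower after CA than after sham, against 11% of 8758 genes. These were Hsp90ab1, at 358 CPM in 82 aged CA cells against 816 in 74 aged sham cells, a ratio of 0.438 (0.378 to 0.507), and Hspa5, at 239 against 540, a ratio of 0.443 (0.369 to 0.530). None of the 7 was 2-fold higher, against 8.99% of genes. In young mice the 2 ratios were 0.699 (0.621 to 0.787) and 0.848 (0.737 to 0.976), and 0 of 7 members were 2-fold lower, against 3.94%, or higher, against 4.17%. Hspa1a had 12 UMIs in aged CA border-associated macrophages, over 9 cells, against 1 in aged sham, and 4 in young CA against 8 in young sham. The counting interval of these levels was 8.0 to 27.1 CPM in aged CA against 0.0370 to 8.15 in aged sham.

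In T or NK cells of aged mice 1 of 7 members lay above a CA ratio of 1, where 52% of 8825 genes did, and 0 of 7 passed 2-fold lower, against 8.06%, or higher, against 6.57%. The ratios were 0.634 for Hspa8 (0.576 to 0.696), 0.542 for Hsp90ab1 (0.491 to 0.597), 0.590 for Hsp90aa1 (0.477 to 0.728) and 0.556 for Hspa5 (0.458 to 0.673). Dnajb1 stood at 42.0 CPM in aged CA against 36.3 in aged sham, a ratio of 1.16 (0.777 to 1.72). Young CA held too few of these cells for a ratio. Hspa1a and Hspa1b were seen with 0 UMIs in the 124 T or NK cells of aged CA, which allows up to 2.42 CPM.

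**Figure D4:**
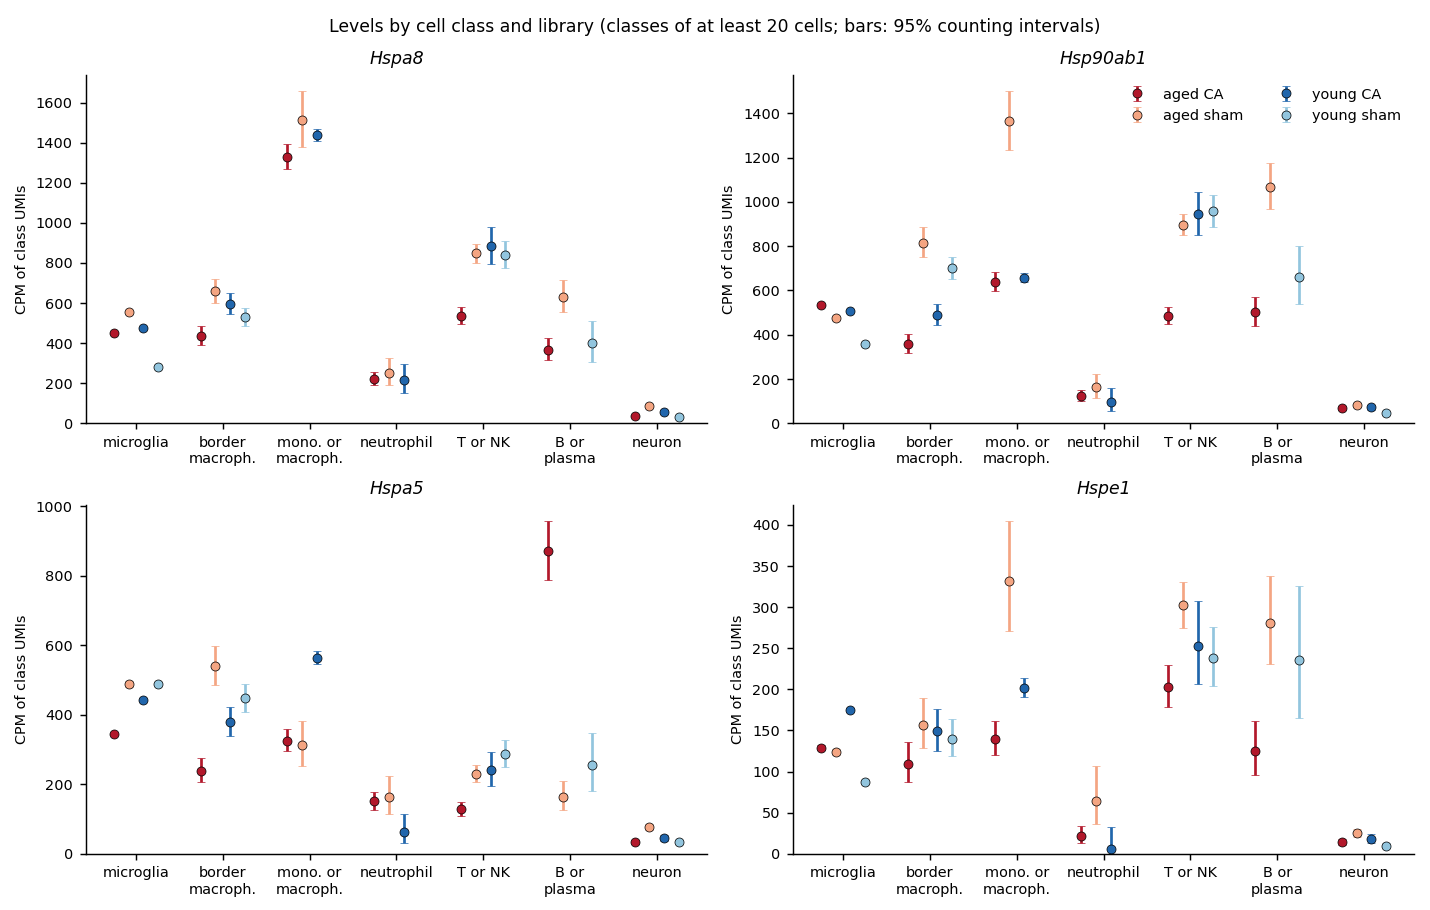
Level of Hspa8, Hsp90ab1, Hspa5 and Hspe1 (vertical axis, CPM of the class total) in 7 marker-gated classes (horizontal axis) for each library with at least 20 cells of the class; bars are exact Poisson 95% intervals. Hspa8 is highest in monocytes or macrophages, neurons are lowest for Hspa8, Hsp90ab1 and Hspa5, and the high Hspa5 of aged CA B or plasma cells comes largely from 2 cells.

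The wider chaperone network in microglia was read from lists chosen with earlier results of these data known. The cytosolic chaperonin TRiC and its partner prefoldin, which fold actin and tubulin, were higher after CA in most subunits. In aged mice 12 of 14 lay above a ratio of 1, against 53.5% of all genes counted, with a median log2 ratio of 0.38 against 0.05 for all genes. In young mice 14 of 14 did, against 44.1% of all genes, with a median of 0.45 against -0.06. None passed 2-fold. The largest were Cct2, at 127 CPM in aged CA against 70.2 in aged sham and 110 in young CA against 65.4 in young sham, and Tcp1, at 91.1 against 50.2 and 70.8 against 45.8. From the shallowest to the deepest bin, 4, 4, 11 and 12 of 14 subunits lay above 1 in aged mice, where 55.7%, 58.1%, 56.1% and 52.3% of all genes counted in the bin did. In young mice 4, 10, 14 and 13 of 14 did, where 50.6%, 55.3%, 47.6% and 42% of all genes did. The subunits also differed by age. Over all depths 14 of 14 lay above 1 in aged against young sham, against 40.4% of all genes, with a median log2 ratio of 0.20 against -0.05. In aged against young CA it was 12 of 14, against 53%, with 0.15 against 0.02. Young sham was thus the lower side of both comparisons in which 14 of 14 lay above 1.

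The counts of the other lists are read against the same background, in aged mice 6.07% of all genes 2-fold higher, 7.73% lower and 53.5% above 1, and in young mice 5.63%, 2.43% and 44.1%. Among HSP90 co-chaperones the glucocorticoid-induced immunophilin gene Fkbp5 stood apart. Its level was 822 CPM in aged CA against 109 in aged sham, and 780 in young CA against 206 in young sham, ratios of 7.56 (7.30 to 7.82) and 3.79 (3.72 to 3.86). Its ratio was at least as large in shallow cells, at 13.4 in aged and 8.74 in young microglia under 2000 UMIs. It was the 1 of 10 co-chaperones measured that was 2-fold higher at either age, and 5 of 10 lay above a ratio of 1 at each age. Chordc1, an HSP90 cofactor, had log2 ratios of -0.62 in aged and -0.32 in young mice.

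Among HSP70 partners 1 of 8 was 2-fold higher at each age, the nucleotide exchange factor Bag1, at 129 CPM in aged CA against 59.7 in aged sham and 138 in young CA against 53.1 in young sham. Bag3, an HSF1 target and the partner of stress-induced HSP70, had ratios of 1.32 (1.20 to 1.46) in aged and 1.05 (0.979 to 1.14) in young mice. Of the other HSP70 and HSP110 genes, Hspa12a was 2-fold lower in aged mice, at 15 CPM after CA against 47.3 after sham, and stood at 20.6 against 35.7 in young mice. Hsph1, an HSF1 target, stood at 7.06 CPM in aged CA against 13 in aged sham. Of the J-domain proteins 1 was 2-fold lower at each age, Dnajb2, with log2 ratios of -1.16 in aged and -1.08 in young mice. Hsf1 itself had ratios of 0.939 (0.859 to 1.03) in aged and 0.772 (0.723 to 0.824) in young mice.

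Beside the mitochondrial pair, 5 of 11 mitochondrial chaperones and proteases lay above a ratio of 1 at each age. Hspa9, the mitochondrial HSP70, had ratios of 1.41 (1.33 to 1.49) in aged and 1.14 (1.10 to 1.19) in young mice, and the protease gene Htra2 was 2-fold lower in aged mice, at 20.4 CPM after CA against 44.7 after sham. Of 26 ER chaperone and unfolded protein response genes 11 lay above 1 in aged and 13 in young mice, with median log2 ratios of -0.15 and about 0. The disulfide isomerase gene Pdia4 was 2-fold lower in aged mice, at 40.9 CPM after CA against 85.5 after sham, while Serp1, which guards new membrane proteins, was 2-fold higher at both ages, with ratios of 2.34 (2.22 to 2.46) and 2.26 (2.18 to 2.35). Of the genes often induced along with heat shock genes, Hmox1, heme oxygenase, was 2-fold higher at both ages, at 55.3 CPM in aged CA against 17.8 in aged sham and 27.4 in young CA against 12 in young sham. In cells under 2000 UMIs its ratios were 0.935 (0.289 to 2.36) in aged and 0.821 (0.360 to 1.85) in young mice. The polyubiquitin gene Ubb had ratios of 1.30 (1.28 to 1.32) in aged and 1.42 (1.40 to 1.43) in young mice. Of 17 immediate early genes 6 were 2-fold higher and 2 lower in aged CA, against 6.07% and 7.73% of all genes, and 7 higher and 0 lower in young CA, against 5.63% and 2.43%. Of the small heat shock genes measured, Hspb3 had ratios of 0.530 (0.481 to 0.583) in aged and 0.764 (0.713 to 0.819) in young mice, and Hspb11 had 0.718 (0.635 to 0.812) and 0.973 (0.892 to 1.06).

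**Figure D5:**
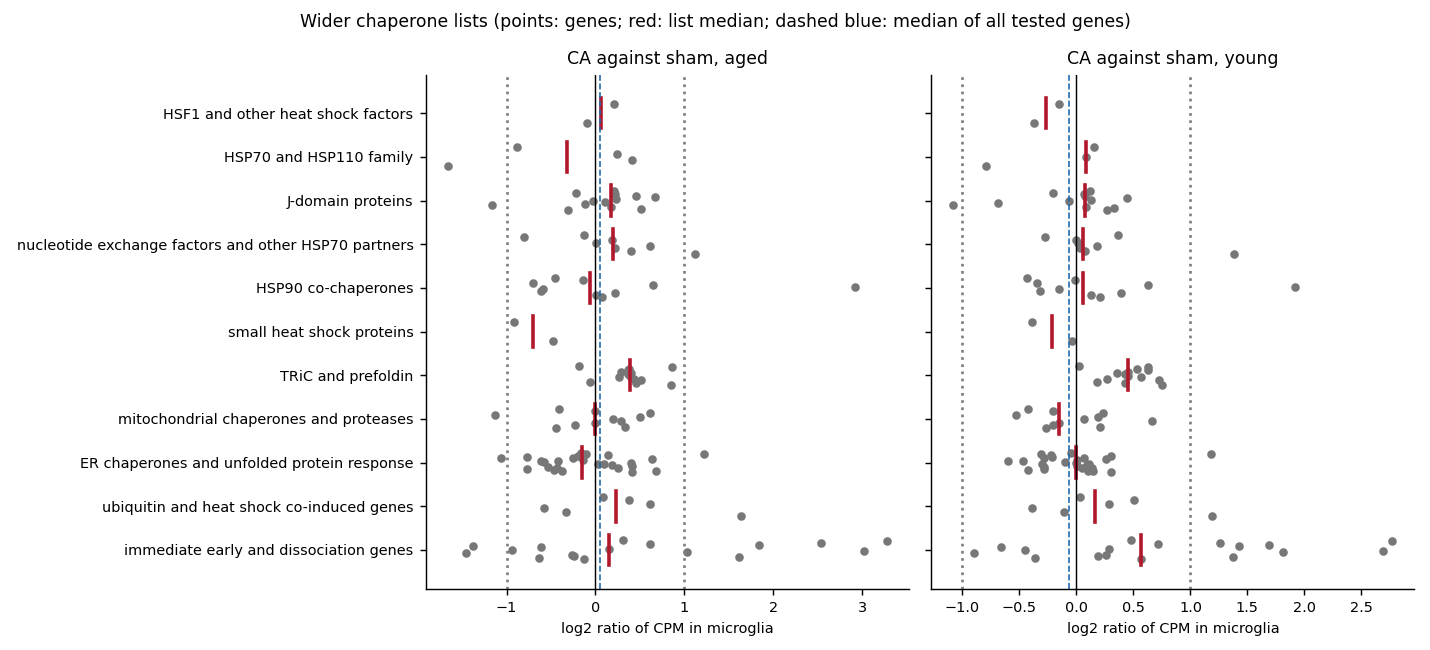
Log2 ratio of CPM in microglia (horizontal axis), CA against sham in aged (left) and young (right) mice, for genes of 11 chaperone and stress lists; points are genes, red bars list medians, the dashed line the median of all genes counted and dotted lines the 2-fold limits. TRiC and prefoldin subunits sit mostly right of 0 (12 of 14 and 14 of 14), and Fkbp5 is the far point among HSP90 co-chaperones.

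Likeness was measured as Pearson's r of log2(CPM + 1) across 12 sums of 1 class in 1 library with at least 100 cells each. The sums share libraries, and the values describe these sums only. In an alternative added after the values were seen, r was taken without the 4 neuronal sums, over the other 8. The genes most like Hspa8 were Myl12a (0.989), Tradd (0.989), Actg1 (0.989), Pfn1 (0.989) and Igtp (0.988), at 0.882 to 0.930 without neurons. Hsp90ab1 was most like Ppia (0.996, and 0.932 without neurons), and Hspe1 most like Arhgdib (0.996 and 0.947). Hspa5 was most like Tgfb1 (0.995 and 0.987), and among its 5 nearest was Sdf2l1 (0.990), another ER chaperone gene. Between members r lay at 0.985 for Hsp90ab1 and Hspe1 and at 0.946 for Hspd1 and Hspe1, and at 0.779 and 0.720 without neurons. The lowest was 0.796 for Hspd1 and Hspa5, which turned to -0.58 without neurons. In that setting r with Hspa5 was below 0 for 4 of the 6 other members, lowest at -0.70 for Dnajb1. The share of all genes with r below 0 against Hspa5 was not counted, so this count is not read as particular to the members.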

How the data were processed

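The deposited matrices hold raw UMI counts (genes by barcodes). The authors' tool was Cell Ranger 7.1.0 and the build mm10, per the submitters' processing notes; its settings for introns and cell calling are not given in the sources used here. The libraries held 70924569 (aged CA), 44277472 (aged sham), 115892682 (young CA) and 72648041 UMIs (young sham) over 6794, 7700, 10794 and 9038 barcodes.

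For the present work, barcodes with at least 500 UMIs, 200 genes and at most 10% mitochondrial UMIs were kept (5888, 7538, 10131 and 8730). Cells were gated by marker rates per 10000 UMIs, not clustered. A class needed at least 3 of its markers at a rate of 10 (neutrophils 100), and microglia a rate of 30 and no other class. Cells passing for several classes, or for another class at a microglial rate of 100 or more, were left out as mixed. The rates were set after the distribution of marker levels had been seen. Scrublet (scanpy 1.11.5) marked 0 barcodes by its own threshold in all 4 libraries, so it did not work as a doublet caller, and ranking by its score was an alternative.

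UMIs of each gated class were added up by library and expressed as CPM with exact Poisson 95% intervals. Ratios have exact conditional binomial 95% intervals and were computed for classes with at least 50 cells in both libraries. Shares have Clopper-Pearson intervals. All cover counting error only, a count of 0 allows up to 3 counts, and no test between groups was possible. Genes counted as 2-fold had a mean of at least 10 CPM over both libraries. Python 3.11.15, numpy 2.4.6 and scipy 1.17.1 were used. The counting rule was run on simulated Poisson counts with planted changes. These had no added spread between cells, libraries or mice, so the run checks the code only. Gene positions are from GENCODE M21 (GRCm38), and promoters from RefSeq (GRCm38.p6), which gave windows for 7 of 10 members. Hspa8, Hsp90aa1 and Hsp90ab1 are named without one. From each wider list the genes named are among the 4 with the largest absolute log2 CA ratio in microglia at either age, and for likeness among the 5 nearest. The members and lists were chosen with earlier results of these data known.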

Additional observations from a re-analysis of the deposited data

Results flagged for a closer look

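Hspa8 in microglia was lower after CA than after sham in aged mice, with a log2 ratio of -0.30, and higher in young mice, with 0.76. The intervals of the 2 ratios lay on opposite sides of 0, and the difference between the ages was not tested. Aged sham was the highest and young sham the lowest of the 4 libraries. In cells under 2000 UMIs the young ratio lay below 1 as well, at 0.704. Hspa8 in border-associated macrophages lay on the same sides, on 74 to 118 cells per library. Its log2 ratio was -0.59 (-0.80 to -0.39) in aged and 0.17 (0.0026 to 0.35) in young mice, where the interval only just cleared 0.

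In barcodes gated as neurons 6 members were counted, at a mean of 10 CPM or more. Of these, 4 had log2 CA ratios whose intervals lay on opposite sides of 0 at the 2 ages. By direction, 1 of 6 lay above a ratio of 1 in aged mice, against 56.9% of 9224 genes. In young mice 6 of 6 did, against 64.2% of 8955 genes. The share of all genes split in this way was not counted, so the split is not read as particular to the members. The log2 CA ratios were -1.29 in aged and 0.86 in young mice for Hspa8, and -0.28 and 0.68 for Hsp90ab1. They were -0.81 and 0.89 for Hspe1, and -1.16 and 0.41 for Hspa5. Hsp90aa1 also had opposite signs, -0.13 and 0.68, with an aged interval that included 0. None of these differences was tested. The neuronal barcodes of aged sham had a median of 3233 UMIs, against 27885 in aged CA, 20692 in young CA and 33583 in young sham, and the part of this depth in the ratios was not tested.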

How the results depend on the processing

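The 8 counts of members past 2-fold in microglia were each 0, and 4 values moved to 1. Under TMM scaling 1 member, Hspe1, was 2-fold higher in young CA against young sham. With a limit of 1 CPM in place of 10 CPM, 1 member, Hspa1a, was 2-fold higher in aged against young CA. Averaging each cell's own CPM, and thinning each cell to 2000 UMIs, each put 1 member, Hspa8, 2-fold higher in aged against young sham. Of the 28 member ratios, 23 left their counting interval under TMM, 19 under the mean over cells and 19 under thinning. The other settings were mitochondrial and UMI minimums, doublet scores, a stricter gate, a pseudocount, haemoglobin, and microglial rates of 15 and 50, which were added after seeing the data. They moved at most 4 of 28. Leaving out the aged CA cell with most Hspa1b UMIs, also added later, moved the Hspa1b ratios given with that gene. Directions turned in 11 cases: in aged CA against sham Hsp90aa1 (-0.05, log2) and Hspe1 (-0.20) under the mean over cells, and Hsp90ab1 under it (-0.03) and under thinning; in young mice Hspa5 under TMM (0.02) and Dnajb1 at 5000 UMIs or more; in aged against young CA both HSP90 genes under TMM (-0.01 each); and the level Hspa5 ratio between the shams in 3 settings (at most 0.01). The cause was not tested. No paired analysis was possible because each group is 1 library and the labels give no replicate numbers. Depth limits the 3 scarce genes most: a level of 1 CPM is about 55 UMIs of aged CA microglia.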

Other observations

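Single cells carried much of some sums outside microglia. In B or plasma cells Hspa5 stood at 870 CPM in aged CA, against 163 in aged sham, over 46 cells each. Of its 416 UMIs in aged CA, 210 came from 1 cell and 62 from another, and without these 2 cells the level was 322 CPM. Jchain, which joins secreted antibodies and marks plasma cells, was seen in 11 of these 46 aged CA cells and in 0 of 46 aged sham cells; the cell with 62 Hspa5 UMIs had 20 of Jchain and the cell with 210 had 1. In aged sham 1 monocyte or macrophage held 133 of 410 Hsp90ab1 UMIs of its 22 cells, and 1 B or plasma cell held 102 of 147 Hsp90aa1 UMIs.

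Ependymal or choroid plexus cells, which line the ventricles, had Hspb1 at 50.3 CPM in aged sham (23.0 to 95.4; 9 UMIs, 25 cells), 90.2 CPM in young CA (29.3 to 211; 5 UMIs, 9 cells) and 102 CPM in young sham (44.2 to 202; 8 UMIs, 10 cells). In the 6 such cells of aged CA it was seen with 0 UMIs, which allows up to 45.3 CPM. Microglia stood at 0.630 to 1.33 CPM in the 4 libraries. With so few cells no comparison of groups was made.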
